A study of Mus musculus with 36 samples.

Results

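The effect of excess against control maternal folic acid (FA) on brain DNA methylation was examined in Tet1+/- (HET) embryos at embryonic day 11.5. The comparison took every library labelled HET of the 30 ppm and 3 ppm FA diets, which were 5 embryos and 3 embryos, or 8 of the 36 embryos sequenced. The embryos were on the 129S6.Cg background and carried 1 copy of Tet1 tm1Koh, an allele in which a cassette is inserted at the first coding ATG of Tet1. HET dams were adapted for at least 4 weeks to a purified diet with 30 ppm (excess) or 3 ppm (control) FA and were mated with HET males. Both diets held 1% succinyl sulfathiazole, an antibiotic that limits folate made by gut bacteria, so the control embryos also developed under it. Brain tissue from forebrain to hindbrain was profiled by oxidative reduced representation bisulfite sequencing (RRBS), which reads CpG-rich fragments and in the oxidative form counts 5-methylcytosine without 5-hydroxymethylcytosine. Embryos were named by diet and replicate. Replicates 3 and 4 of the 30 ppm diet were labelled inHB, given in the study's sample list as a brain malformation, and the other 6 embryos as normal. The 30 ppm embryos came from 3 litters (replicates 1 and 3 were litter mates, as were replicates 2 and 4), and each 3 ppm embryo came from a litter of its own. Since no litter received both diets, diet and litter cannot be told apart.

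Folate carries one-carbon units for the synthesis of nucleotides and of S-adenosylmethionine, the methyl donor of DNA methyltransferases. TET1 oxidises 5-methylcytosine as the first step of active demethylation, and acts mainly near CpG-rich regulatory DNA. Maternal folate status is known to affect closure of the cranial neural tube, and methylation at any CpG reflects both the addition and the removal of methyl groups.

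The labels were first checked. The CpG in Tet1 that best separated the 9 WT from the 16 KO embryos (chr10:62884019) was methylated at 0% to 7.32% in 7 WT and 69.6% to 100% in 15 KO embryos. The others were between these, at 36.36% in WT 30 ppm replicate 2, 40% in WT 0.1 ppm replicate 2 and 45% in KO 30 ppm replicate 1, and their genotype was therefore in doubt. The study's sample list gives the last as HET. It was kept as labelled, outside the comparison, and counting it as a 30 ppm HET embryo is described with the tiles. The CpG also stood in between in all 8 HET embryos, at 8.33% to 28.6% in 30 ppm and 30% to 47.4% in 3 ppm, on 10 to 31 reads. Tet1 methylation at this position was thus higher in each 3 ppm than in each 30 ppm embryo. Another 17 CpGs, at 68.1 to 69.4 Mb of the same chromosome, were listed in most of the 15 KO and in none of the 7 WT embryos. Of these, 17, 14, 10, 13 and 5 had reads in the 30 ppm embryos, and 0, 3 and 8 in the 3 ppm embryos, so that 3 ppm replicate 1 had none and the groups differed there too. A part of linked sequence differences in the results was not tested. The mean methylation of X-linked CpGs was 60.3% to 62.1% in embryos labelled female and 49.7% to 52.6% in those labelled male, except that 3 ppm replicate 1, labelled male, had 62.2%. Its label was therefore in doubt, and by this measure the 3 ppm embryos were all at the female level while 3 of the 5 in 30 ppm were at the male level. The female-level embryos with 30 ppm were replicates 1 and 3, which are litter mates, so sex and litter cannot be told apart in that group. Each library held 29.5 M to 61.8 M CpG calls at a mean coverage of 13.6 to 25.2 reads. RRBS calls carry no expression values, so the dissected tissue could not be checked against marker genes.

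Over shared CpGs, mean autosomal methylation was slightly lower with excess FA, but not beyond the spread between embryos. Taking the 1303886 autosomal CpGs read 5 or more times in each of the 8 embryos, the mean level in the 30 ppm embryos was 38.18%, 38.59%, 38.19%, 38.34% and 39.03%, and in the 3 ppm embryos 38.78%, 39.30% and 38.72%. The lowest 4 of the 8 embryos were all on 30 ppm, and replicate 5, the highest of its group, stood above 2 of the 3 ppm embryos. The means were 38.5% ± 0.358 (SD, n = 5) and 38.9% ± 0.322 (SD, n = 3). The difference was -0.47 percentage points (two-sided exact permutation test over all assignments of embryos, p = 0.107), where p cannot go below 0.0179. That test takes litter mates as separate units, although diet was given to the dams. With litter mates pooled, the difference was -0.37 points (two-sided exact permutation test, p = 0.3), where p cannot go below 0.1. The direction depended on the CpGs used: the difference was -0.15 points with CpGs weighted by reads and 0.72 points, higher with 30 ppm, when each embryo's own CpGs were taken.

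**Figure D1:**
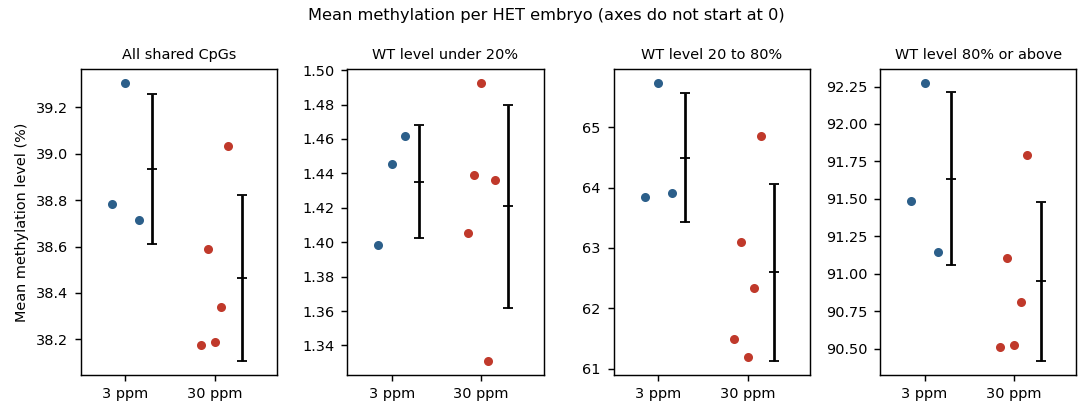
Mean methylation level (%, y axis) of each HET embryo in the 3 ppm (blue, n = 3) and 30 ppm (red, n = 5) groups, over all shared CpGs and over classes set by the level in WT embryos; bars are the mean ± SD. Points of the diets overlap in all 4 panels, and the difference of means is widest, -1.90 points, in the class at 20% to 80% in WT.

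Per CpG, the difference was widest in DNA that is partly methylated. CpGs were classed by their level in the 9 WT embryos of the series, which do not enter the comparison. CpGs at 20% to 80% in WT were at 62.6% ± 1.47 (SD, n = 5) with 30 ppm and 64.5% ± 1.07 (SD, n = 3) with 3 ppm, a difference of -1.90 points. CpGs at 80% or above in WT differed by -0.68 points and those under 20% by -0.014 points. The first class held 12.4% of the CpGs and made up 50.4% of the overall difference, and the highly methylated class, with 32.9% of the CpGs, made up 47.9% of it. By gene feature the differences were -0.083 points in promoters (within 1 kb of a gene start), -0.55 in exons, -0.85 in introns and -0.83 between genes. None of these 7 classes passed the exact permutation test after Benjamini-Hochberg adjustment (adjusted p = 0.219 to 0.732), so the order of the classes is a description.

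Tiles gave the same picture. Reads were summed over 1 kb tiles with at least 3 shared CpGs and a standard deviation of at least 2 points across the embryos, which left 79755 of 112919 tiles. The 30 ppm mean was the lower one in 61.6% of them, with a median difference of -0.99 points, and the median was below 0 on 19 of 19 autosomes (-1.08 to -0.87). Against the mean of the 3 ppm embryos, the median tile of the 30 ppm embryos stood at -1.32, -0.50, -1.36, -1.01 and, in replicate 5, 0.39 points. The shift was therefore seen in 4 of 5 embryos, from 2 litters. Tiles in which no 30 ppm embryo overlapped the 3 ppm embryos and the means differed by 10 points or more numbered 515 lower (0.646% of tiles) and 143 higher (0.179%) in 30 ppm. With an unadjusted p under 0.05 and 10 points, 1005 tiles (1.26%) were lower and 239 (0.3%) higher. Tile for tile, embryos of different diets differed on average by 4.78 to 6.14 points (median 5.62), and embryos of the same diet from different litters by 4.74 to 5.87 in 30 ppm (median 5.53) and 5.48 to 5.79 in 3 ppm.

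**Figure D2:**
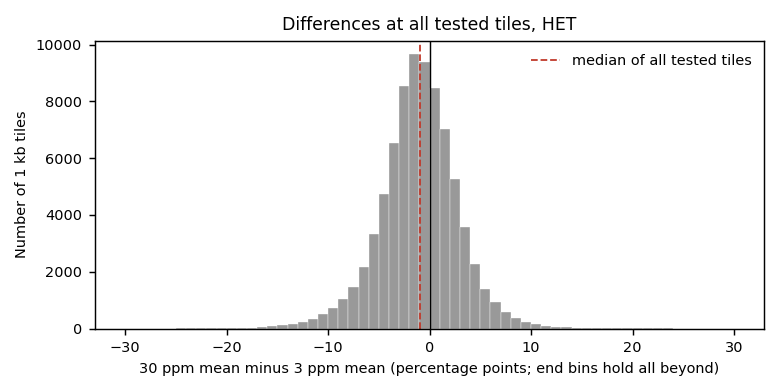
Number of 1 kb tiles (y axis) by the difference of their mean levels, 30 ppm minus 3 ppm, in percentage points (x axis), for all 79755 tested tiles; the end bins hold all values beyond. The histogram is centred just under 0, with the dashed median at -0.99.

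After adjustment few tiles remained. In a quasi-binomial logistic model, in which the embryos and not the reads are the replicates, 16 tiles were called at adjusted p under 0.05 and 10 points (0.0201% of tiles tested), 11 lower and 5 higher in 30 ppm. The dispersion of each tile was drawn strongly toward a value common to all tiles (prior degrees of freedom 43.5). A tile's own spread between embryos therefore entered its test only in part. The 11 lower tiles were all at 20% to 80% in WT, as were 30.9% of all tested tiles and 78.2% of the 1005 lower tiles at an unadjusted p under 0.05 and 10 points. With each embryo left out in turn, 22 to 98 tiles were called, and the tiles near Rab10os and Ntrk2 alone were called in all 8 of these fits. In these fits the prior degrees of freedom were 106 to 163, so that a tile's own spread counted for still less. With limma on percent levels, with the dispersion taken from all 9 groups of the series, with the dispersion of each tile alone or without the filter on SD, 0 tiles were called (1602, 1045, 720 and 1256 at an unadjusted p under 0.05 and 10 points). The named tiles were described in full, 10 in each direction, of which 13 were called: the smallest p among tiles with 10 points and no overlap between diets. Of the named tiles, 7 lay in promoters, 7 in introns, 2 in exons and 4 between genes, beside 8.28%, 41.28%, 15.46% and 34.98% of all tested tiles.

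The calls also moved with the libraries and the sex of the embryos. With the library labelled KO 30 ppm replicate 1 counted as HET, 11 tiles were called (4 higher, 7 lower), and the mean difference was -0.57 points. The tiles of Nr1h2 (-9.46 points, under the minimum of 10), Gm24444, Henmt1, Gm37667, Zfp473 and Tcf20 were then not called (adjusted p = 0.066 to 0.169 for the last 5). With labelled sex as a covariate, the calls of Henmt1 and Zfp473 were lost (adjusted p = 0.057 and 0.068), and with sex by X-linked level (added after seeing the data) also those of 4931440F15Rik, Pde4c and Smoc1 (0.18, 0.052 and 0.079). Between the female-level embryos alone, 2 against 3, the tiles of Rab10os, 4931440F15Rik, Smoc1, Henmt1 and Zfp473 were not called. The difference was 9.45 points at Rab10os (under the minimum of 10), -13.0 at Smoc1 (adjusted p = 0.0816), -15.8 at Rgl1, -25.9 at Tcf20, 10.7 at Zfp473 and 3.53 at Peg10.

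**Figure D3:**
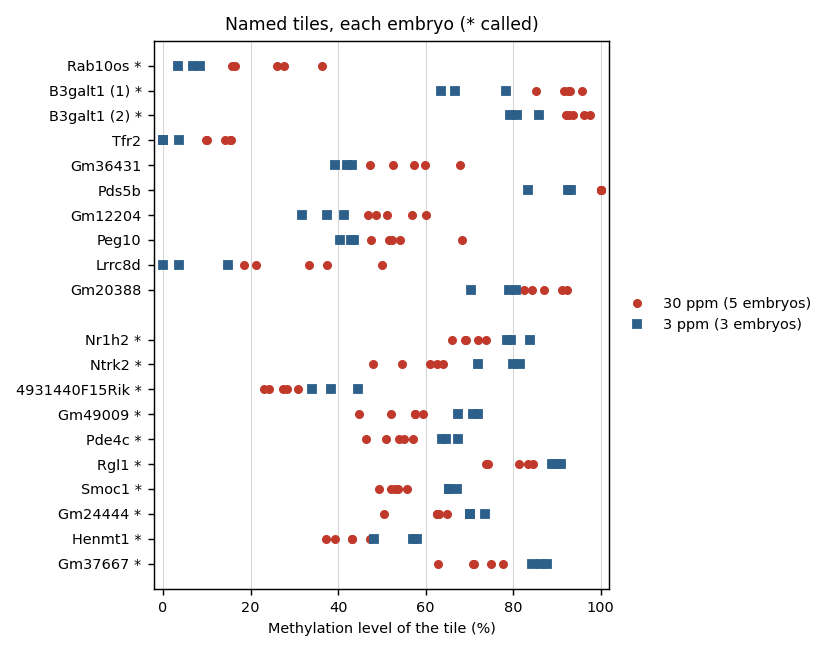
Methylation level (%, x axis) of each named tile in each 30 ppm (red circles, 5 embryos) and 3 ppm (blue squares, 3 embryos) HET embryo, higher tiles above and lower tiles below; an asterisk marks a called tile. The diets do not overlap in any row because tiles were chosen that way, and 3 ppm embryos lie close together in most of the lower rows.

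The tile with the smallest p was higher in excess FA. It lies at the start of Rab10os, a noncoding gene on the opposite strand to Rab10, which encodes a small GTPase of vesicle transport (chr12:3235001-3236000, 23 CpGs, 399 to 1096 reads per embryo). The stretch that holds most of its CpGs is shown here on the plus strand of GRCm38.p6, with the CpGs covered in all 8 embryos in capitals, because it shows how densely the changed CpGs lie:
Rab10os, chr12:3235495-3235720: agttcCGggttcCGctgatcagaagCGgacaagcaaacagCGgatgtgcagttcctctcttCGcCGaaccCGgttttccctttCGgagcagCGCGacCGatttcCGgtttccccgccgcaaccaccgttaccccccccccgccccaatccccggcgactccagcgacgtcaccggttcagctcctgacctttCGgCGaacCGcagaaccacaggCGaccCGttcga
The tile was methylated at 15.8%, 26.0%, 16.3%, 27.7% and 36.304% in the 30 ppm embryos and at 8.37%, 6.77% and 3.37% in the 3 ppm embryos. Every 30 ppm embryo was above every 3 ppm embryo, the female-level replicates 1 and 3 being the lowest of their group, and all 23 CpGs differed in the same direction (9.47 to 26.9 points). The means were 24.4% ± 8.57 (SD, n = 5) and 6.17% ± 2.56 (SD, n = 3), a difference of 18.3 points (quasi-binomial F test with Benjamini-Hochberg adjustment, adjusted p = 4.77e-07). Embryos of the other genotypes did not show a low level with 3 ppm. WT embryos stood at 17.9% with 30 ppm and 20.9% with 3 ppm, and KO embryos at 25.7% and 23.6%. The pair of more deeply sequenced HET embryos from the FA-depleted diet (0.1 ppm) had 36.1% and 37.5%. The diet difference exceeded that in WT by 21.3 points, but this did not pass adjustment over all tiles (interaction term, unadjusted p = 5.69e-05, adjusted p = 0.369). With each litter as a block, a fit added after seeing the data that compares genotypes within litters, the excess over WT was 28.4 points and passed (adjusted p = 0.01599; 20.8 points and 0.0189 without WT 30 ppm replicate 2, of doubtful genotype), and the excess over KO was 12.01 points (adjusted p = 0.978). HET and WT embryos shared 2 litters in each diet, but without WT 30 ppm replicate 2 only 1 shared litter remained in 30 ppm. That fit had 4 residual degrees of freedom. The tile was chosen on HET embryos that also enter this term.

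The largest fall among the called tiles was in Ntrk2, which encodes TrkB, the receptor tyrosine kinase for brain-derived neurotrophic factor. The tile (chr13:58812001-58813000, 7 CpGs, 131 to 377 reads) lies inside Ntrk2 and at the start of the noncoding gene C630044B11Rik. Its covered CpGs, in capitals, are spread over a CpG-poor stretch:
Ntrk2, chr13:58812465-58812751: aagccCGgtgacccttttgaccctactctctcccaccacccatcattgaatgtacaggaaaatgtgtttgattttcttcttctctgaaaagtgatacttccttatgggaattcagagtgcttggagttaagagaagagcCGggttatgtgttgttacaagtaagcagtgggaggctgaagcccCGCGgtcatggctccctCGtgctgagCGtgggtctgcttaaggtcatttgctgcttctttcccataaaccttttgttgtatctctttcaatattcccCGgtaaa
The level was 62.6%, 54.6%, 48.0%, 61.0% and 63.9% with 30 ppm and 80.0%, 81.7% and 72.0% with 3 ppm. All 7 CpGs were lower with 30 ppm, with differences of -26.4 to -12.7 points, and the means of 58.0% ± 6.66 (SD, n = 5) and 77.9% ± 5.17 (SD, n = 3) differed by -19.9 points (adjusted p = 0.00599). The WT embryos were at 61.4%, within the range of the 30 ppm HET embryos. The difference between diets was 1.81 points in WT and -5.57 points in KO.

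Nr1h2 encodes liver X receptor beta, a nuclear receptor for oxysterols. A tile over its exons (chr7:44551001-44552000, 21 CpGs, 491 to 1066 reads) was lower with excess FA, and the stretch below carries 17 of its CpGs:
Nr1h2, chr7:44551580-44551878: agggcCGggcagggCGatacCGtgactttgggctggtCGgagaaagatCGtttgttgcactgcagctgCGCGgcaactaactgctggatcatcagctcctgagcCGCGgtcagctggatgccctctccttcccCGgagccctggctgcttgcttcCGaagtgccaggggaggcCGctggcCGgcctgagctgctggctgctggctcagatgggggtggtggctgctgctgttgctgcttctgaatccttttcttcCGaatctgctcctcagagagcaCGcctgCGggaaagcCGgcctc
The 30 ppm embryos were at 73.8%, 72.0%, 66.0%, 69.3% and 69.0% and the 3 ppm embryos at 78.7%, 79.6% and 83.8%. The spread within each diet was small, with means of 70.0% ± 2.98 (SD, n = 5) and 80.7% ± 2.71 (SD, n = 3). The difference was -10.7 points (adjusted p = 0.000206), and 20 of the 21 CpGs were lower. The WT level was 69.8%, and the diet difference was -0.39 points in WT and -3.80 points in KO.

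A CpG-dense tile lay in the promoter of 4931440F15Rik and inside Eml6, which encodes a protein of the microtubule-binding EMAP family (chr11:29825001-29826000, 20 CpGs, 335 to 686 reads):
4931440F15Rik, chr11:29825241-29825473: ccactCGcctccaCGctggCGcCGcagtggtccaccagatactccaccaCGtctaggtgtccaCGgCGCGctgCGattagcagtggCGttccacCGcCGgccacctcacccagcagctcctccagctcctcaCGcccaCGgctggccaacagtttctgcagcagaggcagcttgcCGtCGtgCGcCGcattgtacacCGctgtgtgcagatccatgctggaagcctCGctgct
It was methylated at 27.5%, 23.1%, 30.8%, 28.3% and 24.2% with 30 ppm and at 38.32%, 44.5% and 34.0% with 3 ppm. The diets did not overlap and all 20 CpGs were lower with 30 ppm. The means were 26.8% ± 3.11 (SD, n = 5) and 38.9% ± 5.24 (SD, n = 3), with a difference of -12.2 points (adjusted p = 0.0108). This was the named tile with the most similar difference in KO embryos, -12.7 points (exact permutation test of 6 against 5 embryos, p = 0.00866, adjusted p = 0.32 over the 37 tests of named tiles in WT and KO), while WT embryos differed by -1.12 points. Without KO 30 ppm replicate 1, of doubtful genotype, the KO difference was -11.1 points. The permutation test takes litter mates as separate units.

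Lower tiles in genes of signalling and secretion were Pde4c, Rgl1 and Smoc1. Pde4c encodes a phosphodiesterase that breaks down cyclic AMP. Its intronic tile (chr8:70745001-70746000, 14 CpGs) was at 57.1%, 53.9%, 46.4%, 51.0% and 55.1% with 30 ppm and 67.4%, 64.7% and 63.7% with 3 ppm, a difference of -12.6 points (adjusted p = 0.0142). The covered CpGs lie in a short dense run, shown because 13 of 14 CpGs fall in it:
Pde4c, chr8:70745296-70745415: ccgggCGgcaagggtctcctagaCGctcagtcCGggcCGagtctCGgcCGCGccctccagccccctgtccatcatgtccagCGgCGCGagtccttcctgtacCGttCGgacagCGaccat
Rgl1 encodes an exchange factor for Ral GTPases, and its tile also lies at the start of the gene Gm7278. The tile (chr1:152730001-152731000, 19 CpGs) held 73.7%, 83.4%, 74.4%, 81.4% and 84.7% with 30 ppm and 90.9%, 88.9% and 89.8% with 3 ppm, a difference of -10.4 points (adjusted p = 0.021). Its call was lost in 4 of the 8 fits that left out an embryo. Smoc1 encodes a secreted calcium-binding protein that modulates BMP signalling. The tile near its start (chr12:81028001-81029000, 15 CpGs) held 52.1%, 49.3%, 53.7%, 52.9% and 55.7% against 67.2%, 65.3% and 65.3%, a difference of -13.2 points (adjusted p = 0.0222). The gap between the diets was wide beside the spread within them (SD 2.33 and 1.09), yet the call was lost whenever any of the 3 ppm embryos was left out.

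The other lower tiles were Henmt1, Tcf20 and 3 tiles between genes. Henmt1 encodes the methyltransferase that caps the ends of piRNAs in germ cells. Its tile (chr3:108940001-108941000, 13 CpGs), in the promoter it shares with Gm9857, held 43.2%, 43.1%, 47.4%, 37.1% and 39.4% with 30 ppm and 58.1%, 57.2% and 48.1% with 3 ppm. The difference was -12.4 points (adjusted p = 0.0319), and the lowest 3 ppm embryo stood next to the highest 30 ppm embryo. Nearest to Gm49009 (chr14:78777001-78778000, 8 CpGs), the level was 44.8%, 52.1%, 57.6%, 57.53% and 59.5% with 30 ppm and 67.3%, 70.9% and 72.0% with 3 ppm, a difference of -15.8 points (adjusted p = 0.0108). All 8 CpGs were lower, and 7 of them lie within this stretch:
Gm49009, chr14:78777429-78777493: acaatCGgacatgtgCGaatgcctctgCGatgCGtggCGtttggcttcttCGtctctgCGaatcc
Nearest to Gm37667 (chr4:124140001-124141000, 10 CpGs) the difference was -14.6 points (71.5% ± 5.57, n = 5, and 86.1% ± 1.75, n = 3, SD; adjusted p = 0.0343). Nearest to Gm24444 (chr7:136502001-136503000, 19 CpGs) it was -10.6 points (60.7% ± 5.82, n = 5, and 71.3% ± 2.01, n = 3, SD; adjusted p = 0.0246). In Tcf20, which encodes a transcriptional coregulator, the diets overlapped: 28.0%, 39.8%, 25.1%, 38.8% and 45.9% against 43.0%, 69.1% and 45.29%, a difference of -16.9 points (adjusted p = 0.0222). The embryo 3 ppm replicate 2, stood far above the rest there, and without it the difference was -8.63 points and not called.

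The remaining called tile outside chromosome 2 was in Zfp473, a zinc finger gene, and just upstream of the nearest gene start, that of Vrk3. It was higher with 30 ppm, at 12.3%, 22.8%, 21.7%, 30.2% and 25.8% against 3.95%, 13.3% and 1.71% (chr7:44747001-44748000, 6 CpGs), a difference of 16.2 points (adjusted p = 0.0222), although 30 ppm replicate 1 was under 3 ppm replicate 2. The 7 named higher tiles that were not called had adjusted p of 0.127 to 0.326. Among them was a tile in Tfr2, which encodes a transferrin receptor of iron sensing, at 9.86% to 15.6% with 30 ppm and 0% to 3.70% with 3 ppm. In Lrrc8d, a subunit of the volume-regulated anion channel, the level was 18.5% to 50% against 0% to 14.8%, on only 21 to 33 reads. In Pds5b, a cohesin regulator, all 5 embryos with 30 ppm were at 100% and the 3 ppm embryos at 83.3% to 93.3%, on 18 to 54 reads. The others were Gm36431 (15.5 points), Gm12204 (15.8 points) and Gm20388 (10.8 points).

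Peg10 is an imprinted gene expressed from the paternal copy, and its promoter, shared with the imprinted gene Sgce, is normally methylated on the maternal copy. The tile (chr6:4747001-4748000, 11 CpGs, 129 to 355 reads) was at 51.7%, 68.4%, 52.2%, 47.6% and 54.3% with 30 ppm and 40.4%, 42.93% and 43.6% with 3 ppm. The diets did not overlap and 11 of 11 CpGs were higher, but the difference of 12.5 points was not called (adjusted p = 0.288). The highest value came from 30 ppm replicate 2. Without it the difference on the same 11 CpGs was 9.16 points, and over the 22 promoter CpGs shared by the other 7 embryos it was -0.33 points, so the value depended on which CpGs of the promoter were read. The WT level was 44.9%, and the diet difference was -1.94 points in WT and -0.33 points in KO.

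The last 3 called tiles lay close together on chromosome 2 and each rested on 1 CpG. In B3galt1, a galactosyltransferase gene of glycan synthesis, the tile at chr2:67612001-67613000 differed by 22.2 points (adjusted p = 0.00016) and that at chr2:68005001-68006000 by 12.4 points (adjusted p = 0.00223). A tile at the start of Gm36002 (chr2:68582001-68583000) differed by 28.7 points (adjusted p = 0.0142). Without the CpG of largest difference these became -1.26, 0.089 and 5.72 points. Tests of single CpGs called 40 of 801297 (0.00499%), 24 higher and 16 lower in 30 ppm, and 11 of them fell between 67.6 and 69.8 Mb of this chromosome. The fit gave all CpGs 1 common dispersion (1.03), so the spread between embryos at a CpG did not enter its own test, and with the dispersion of each CpG alone 0 were called (7574 at an unadjusted p under 0.05 and 10 points). Of the 28 tested CpGs with a difference of 40 points or more, 11 were in this interval. The 32 bases around 7 of these CpGs, 1 or 2 for each gene, are shown on the plus strand of GRCm38.p6 with the called CpG in capitals, the first 4 higher and the last 3 lower with 30 ppm:
B3galt1, chr2:67612880-67612911: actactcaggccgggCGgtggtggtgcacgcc
B3galt1, chr2:68005558-68005589: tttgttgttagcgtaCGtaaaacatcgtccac
Gm36002, chr2:68582223-68582254: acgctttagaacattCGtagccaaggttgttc
Nostrin, chr2:69117302-69117333: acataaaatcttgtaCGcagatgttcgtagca
Spc25, chr2:69198887-69198918: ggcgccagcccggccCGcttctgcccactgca
Lrp2, chr2:69494792-69494823: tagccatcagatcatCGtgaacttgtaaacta
Ccdc173, chr2:69766296-69766327: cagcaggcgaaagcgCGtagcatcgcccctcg

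The embryos fell into 3 levels at these CpGs. At the CpG in B3galt1 at position 68005573, the 30 ppm embryos had 96.7%, 96.0%, 97.1%, 95.8% and 75.0% and the 3 ppm embryos 46.7%, 0% and 0%, a difference of 76.6 points (adjusted p = 2.28e-28). At the CpG in Spc25, a kinetochore gene, the order was opposite, with 0% in 4 embryos and 53.8% in replicate 5 with 30 ppm, and 27.8%, 89.5% and 96.6% with 3 ppm, a difference of -60.5 points (adjusted p = 3.99e-18). In Lrp2, which encodes the endocytic receptor megalin of the forebrain neuroepithelium, the CpG at position 69494807 was at 0% in 4 embryos and 30.8% in replicate 5 with 30 ppm, and at 50%, 100% and 94.7% with 3 ppm. The same embryos were thus at an extreme at each CpG: replicates 1 to 4 of 30 ppm at one end, replicates 2 and 3 of 3 ppm at the other, and 30 ppm replicate 5 and 3 ppm replicate 1 in between. With the 7 lower CpGs turned over (100 minus the level), the median of the 11 CpGs was 94.1% to 100% in 18 of all 36 embryos, 41.7% to 60.0% in 14 and 0% to 1.72% in 4. Of 373 values, 371 were in the class of their embryo's median (under 20%, 20% to 80%, over 80%). Over all genotypes the 30 ppm diet had 9 embryos in the high and 5 in the middle class, the 3 ppm diet 1, 7 and 4 from high to low, and the 0.1 ppm diet 8 high and 2 middle. The other 699 tested CpGs of the interval had a median difference of -0.30 points, and 6.44% of them differed by 10 points or more, against 9.11% of all tested CpGs. Litter mates could differ in class: 3 ppm replicate 2 had a median of 0% and its WT and KO litter mates 50% to 60%. Bisulfite reads do not tell an unmethylated C from a T in an embryo's own sequence, which was not analysed here. A part of sequence differences between embryos in these values was not tested.

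**Figure D4:**
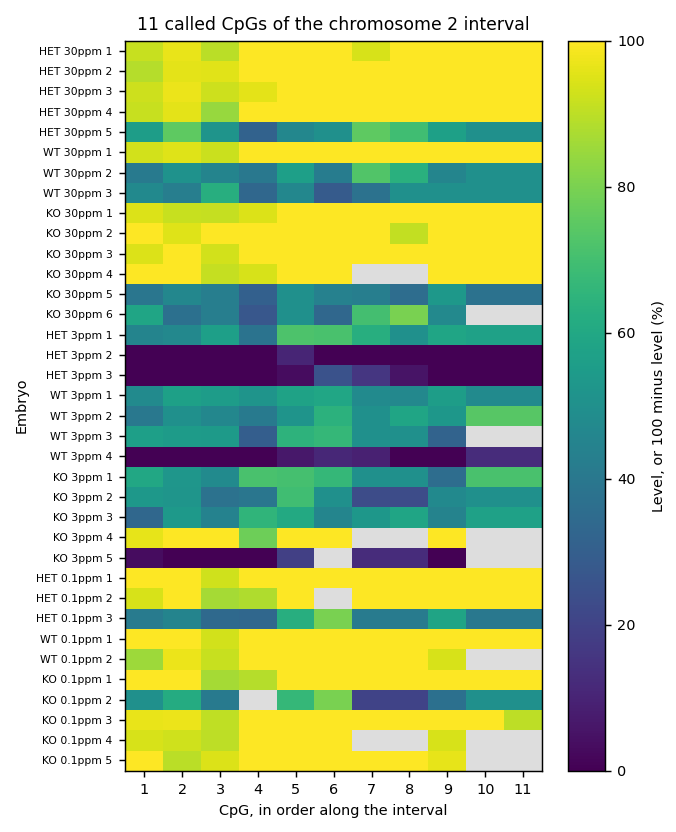
Level (colour, %) of the 11 called CpGs of the chromosome 2 interval (columns, in order along the chromosome) in all 36 embryos of the series (rows, by diet and genotype), with CpGs lower in 30 ppm HET shown as 100 minus the level and grey for CpGs under the coverage minimum. Rows are nearly uniform: 18 embryos are at the top of the scale, 14 near its middle and 4 near 0, and HET embryos of the 3 ppm diet are in the middle and low classes only.

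Of the other 29 called CpGs, 8 lay beside Gm2651 on chromosome 6 (10.95 to 13.4 points higher) at a depth of 8.75 to 8.77 times the median CpG, and 7 in Gm26917 on chromosome 17 (11.7 to 26.8 points higher) at 5.69 to 6.95 times. Whether reads of repeated copies were counted there was not tested. Of 1303886 shared CpGs, 759 had over 5 times the median depth. A further 3 called CpGs were in the Rab10os tile. The remaining 11 included these 4, picked after their values were seen. In exonic sequence of Emx1, a homeobox gene of the dorsal forebrain, the level was 82.5% to 91.4% with 30 ppm and 100% in all 3 embryos with 3 ppm (adjusted p = 0.049952). In Pcdh7, a protocadherin gene of cell adhesion, it was 4.00%, 0%, 6.67%, 10.0% and 16.7% against 68.8%, 70.0% and 36.8% (-51.1 points, adjusted p = 6.57e-05, 6 to 30 reads). In Mpp2, a membrane scaffold gene, it was 3.45% to 9.62% against 13.9% to 48.3% (-23.4 points), and in Rem1, which encodes a GTPase that binds calcium channels, 95.6% to 100% against 75.0% to 84.0% (20.7 points). Without the chromosome 2 interval and the CpGs of over 5 times the median depth, 2 of the 40 CpGs were still called. They were the lower one in Pcdh7 (adjusted p = 0.00272) and a higher one in Wdfy2 (37.9 points, adjusted p = 0.00315). At the Wdfy2 CpG the diets overlapped. There 3 ppm replicate 3 had 95.45%, within the 30 ppm range of 91.67% to 97.5%, and 3 ppm replicates 1 and 2 had 41.18% and 35.29%.

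No promoter of a protein-coding or listed gene passed the test. The promoters, 1 for each gene symbol, were those of protein-coding genes and of the genes in the lists below, so that the starts of Rab10os, C630044B11Rik and Gm36002 were tested only as tiles. Of 1905 promoters that varied enough to be tested, 0 were called (0%), and the smallest adjusted p was 0.213. Of those tested, 60.9% were lower with 30 ppm (median -0.79 points). Tiles in the promoters of 4931440F15Rik and Henmt1 were called, but the promoters were not, in a fit whose prior degrees of freedom were 10.2 against 43.5 for tiles. At an unadjusted p under 0.05 and 10 points, 6 were higher and 12 lower. In this set, promoters with 10 points and no overlap between the diets numbered 3 higher (Sgce and Peg10, which share their CpGs, and Neb, the gene of the muscle protein nebulin) and 8 lower. The lower ones with the smallest p were 4931440F15Rik and the pair of Henmt1 and Gm9857, given above, then C1qtnf3, a gene of a secreted C1q-like protein (61.4% ± 11.6, n = 5, and 83.5% ± 7.32, n = 3, SD; adjusted p = 0.513), and Cd93, a gene of an endothelial and myeloid cell surface protein (61.2% ± 5.85, n = 5, and 72.6% ± 2.64, n = 3, SD; adjusted p = 0.647). With noncoding genes included, which was added after seeing the data, 0 of 5402 promoters were called (0%), 8 higher and 25 lower had 10 points and no overlap, and the smallest adjusted p was that of Rab10os (18.3 points, 0.0531).

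Gene lists from folate metabolism to brain patterning were counted next. The 17 lists held 752 genes, of which 653 had a measured promoter and 86 one that varied enough to be tested. None of the 86 was called (0 of 1905 in all), and the smallest adjusted p among the 24 list promoters named by the rule was 0.513. In most lists the median promoter level in the 3 ppm embryos was under 2%, as for all promoters (0.794%), which left 0 tested promoters in the lists of cranial neural tube closure regulators, sonic hedgehog genes and Hox clusters. The tiles inside the lists' genes had a median difference below 0 in 16 of 17 lists (-1.86 in sonic hedgehog genes to 0.30 in Hox clusters), beside -1.01 points over the 50039 tiles in all genes.

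Among enzymes of one-carbon metabolism, 5 of 12 tested promoters were higher and 7 lower with 30 ppm (median -1.25 points, beside -0.79 over all tested promoters), none called. The smallest unadjusted p was for Gcsh, which encodes the H protein of the glycine cleavage system, at 6.53% to 7.42% with 30 ppm and 5.66%, 14.0% and 10.8% with 3 ppm. Cth, the gene of cystathionine gamma-lyase, was at 8.25% ± 2.23 (SD, n = 5) and 11.9% ± 1.96 (SD, n = 3). Of the folate transporter genes only Abcc3 had a tested promoter (25.7% ± 3.92, n = 5, and 22.8% ± 1.63, n = 3, SD). In the DNA methylation list 3 promoters were tested and 3 were lower, with Dnmt3l, the cofactor of de novo methylation, at 65.6% ± 7.93 (SD, n = 5) and 68.2% ± 5.68 (SD, n = 3).

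In signalling and neuronal lists the diets overlapped at all named promoters except Slc6a7, a proline transporter gene, at 16.6%, 16.4%, 13.97%, 15.3% and 16.1% with 30 ppm and 12.7%, 13.9% and 9.72% with 3 ppm (3.56 points, adjusted p = 0.8). The WNT inhibitor gene Dkk4 was at 77.1%, 73.8%, 76.9%, 76.2% and 91.7% with 30 ppm and 95.2%, 93.3% and 86.1% with 3 ppm (-12.4 points, adjusted p = 0.746), where replicate 5 alone reached the 3 ppm levels. Ctnnb1, the gene of beta-catenin, differed by 6.58 points, Sema4a, a semaphorin gene of axon guidance, by -7.81 points, and Wnt5a, a ligand of planar cell polarity, by 0.68 points. Of 8 tested potassium channel promoters 7 were lower (median -5.31 points) and none was called, beside 60.9% lower and -0.79 points over all tested promoters, with Kcnj11 at 51.9% ± 4.63 (SD, n = 5) and 58.0% ± 4.12 (SD, n = 3). Bsn, the gene of the presynaptic protein Bassoon, differed by 3.12 points. The glutamate transporter gene Slc1a7 differed by 8.04 points (adjusted p = 0.825).

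Germline genes, whose promoters are silenced by methylation in the embryo, were measured at a median of 83.6% with 3 ppm. Of 24 tested, 18 were lower and 6 higher with 30 ppm (median -1.24 points; 60.9% of all tested promoters were lower). Slc25a31, which encodes a germ cell ADP/ATP carrier, was at 80.7% ± 4.90 (SD, n = 5) and 87.6% ± 2.58 (SD, n = 3), and Mei1, a gene of meiotic recombination, at 19.01% ± 2.26 (SD, n = 5) and 24.6% ± 3.25 (SD, n = 3). Their adjusted p were 0.515 and 0.813. Of 21 tested imprinted promoters, 13 were higher and 8 lower (median 0.76 points), with Peg10 and Sgce at the top of the rank.

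The WT and KO embryos of the same diets were set beside the named tiles. The comparisons held 3 and 4 WT embryos and 6 and 5 KO embryos. Of these, 5 of 7 WT and 9 of 11 KO embryos were litter mates of the HET embryos compared. They are thus no independent check of the tiles, since diet and litter cannot be told apart in them either. Of the 10 lower tiles, 10 were lower in KO too (-12.7 to -2.61 points, median -4.69) and 6 in WT (-9.46 to 6.57, median -0.59), beside 70.1% of all tiles shared with KO and 43.1% of those shared with WT. Of the higher tiles, 3 of 8 measured were higher in KO (median -2.11 points) and 5 of 9 in WT (median 0.39). Some of these values rest on few of a tile's CpGs, 1 of 12 at Gm20388 (where HET embryos differed by 2.38 points on the same CpG), 2 of 3 at Tfr2 and 3 of 19 at Rgl1. With the exact permutation test, 1 of these differences, that of 4931440F15Rik in KO, had an unadjusted p under 0.05. The difference of the diet effects was tested as an interaction term over all tiles. Against WT, 0 of 58315 tiles were called (0%), with 1262 at an unadjusted p under 0.05 and 10 points, but 17 were called without WT 30 ppm replicate 1. Against KO, 0 of 61465 were called (0%), with 993 at that level. With litter as a block, 1 tile was called against WT, that of Rab10os, and 0 against KO (1867 and 1339 at an unadjusted p under 0.05 and 10 points). These fits had 5 and 9 residual degrees of freedom, on 2 shared litters in each diet with WT and 3 with KO. Over the tiles shared with WT the median diet difference was -0.91 points in HET and 0.48 in WT, and over those shared with KO it was -0.77 in HET and -1.31 in KO. Without the block, a pair of tiles passed adjustment against WT below 10 points. They were in Zfp869 (4.76 points in HET, -3.27 in WT, adjusted p = 0.0397) and Calhm6 (-3.19 and 3.92, adjusted p = 0.0397). With litter as a block neither passed, while the tile nearest to Gcsh did (-8.94 points, adjusted p = 0.0265). Without WT 30 ppm replicate 2, Zfp869 passed with the block (8.37 points, adjusted p = 0.0189) and Gcsh did not. Without the libraries of doubtful genotype (WT 30 ppm replicate 2 and KO 30 ppm replicate 1), which left 2 and 5 embryos with 30 ppm, the lower tiles were lower in 10 of 10 in KO (median -3.40) and 6 of 10 in WT (median -2.93), and the higher tiles higher in 4 of 8 in KO (median -0.12) and 5 of 9 in WT (median 0.072).

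**Figure D5:**
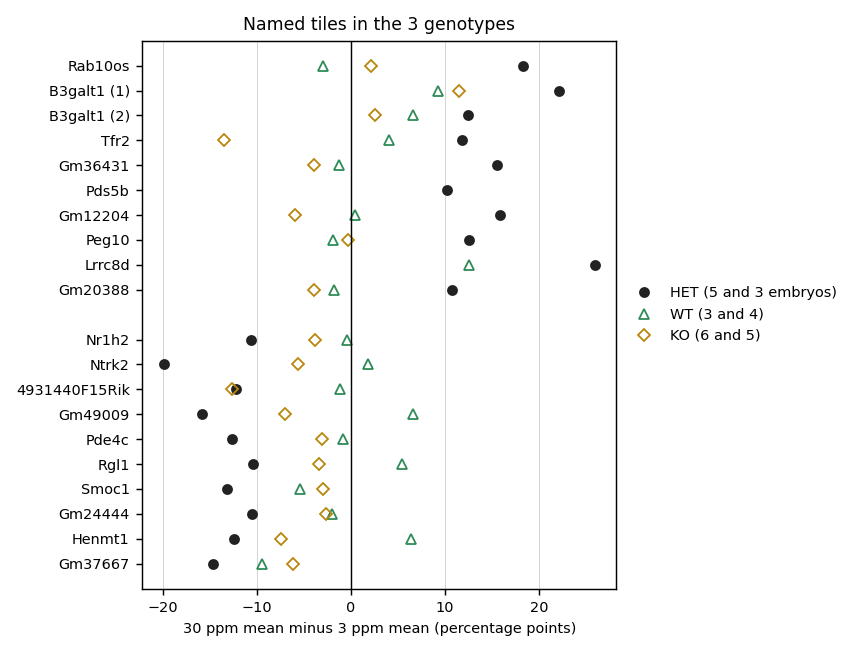
Difference of mean levels, 30 ppm minus 3 ppm, in percentage points (x axis) at the named tiles in HET (black), WT (green triangles) and KO (ochre diamonds) embryos; Pds5b has no WT or KO value and Lrrc8d no KO value, since too few CpGs were covered there. All 10 KO diamonds of the lower group are left of 0, as are 70.1% of all tiles shared with KO, and WT triangles lie on both sides (43.1% of all shared tiles are lower in WT).

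At the lower tiles the WT level was nearer to that of the 30 ppm HET embryos. The level over all 9 WT embryos was nearer to the 30 ppm than to the 3 ppm HET mean in 11 of 11 called lower tiles and in 4 of 5 called higher tiles, beside 62.2% of all tested tiles. Among tiles with an unadjusted p under 0.05 and 10 points, this held for 859 of 1005 lower tiles (85.5%) and 143 of 239 higher tiles (59.8%). Without the doubtful WT libraries (30 ppm replicate 2 and 0.1 ppm replicate 2) the counts were 11 of 11 and 4 of 5 called tiles, 887 of 1005 and 142 of 239. In Pde4c, for example, WT stood at 48.7%, 30 ppm HET at 52.7% and 3 ppm HET at 65.3%, and in Smoc1 at 53.2%, 52.8% and 65.9%. The pair of more deeply sequenced HET embryos of the 0.1 ppm diet (replicates 1 and 3) did not side with either diet. Of the 11 called lower tiles, both were nearer to the 30 ppm mean in 2 (Nr1h2, 72.28% and 72.29%, and Pde4c, 52.2% and 53.8%), 1 of the pair in 8 and neither in 1 (Tcf20, 57.9% and 51.9%, beside a 3 ppm mean of 52.5%). At Ntrk2 they had 80.0% and 67.01%, at Rgl1 80.3% and 91.5%, at Gm49009 73.9% and 54.9% and at Henmt1 46.7% and 54.0%, so that 1 of them was at or near the 3 ppm mean of 77.9%, 89.9%, 70.1% and 54.5%. Of the 5 called higher tiles, both were nearer to the 30 ppm mean in 1 (Rab10os) and 1 of the pair in 4. The tiles were chosen on the HET embryos, and the group of 3 has the less precise mean, so these counts are given with no test.

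Regions listed by the study for other comparisons were read in the HET embryos. The study lists 857 regions as gaining methylation with 30 ppm in WT, of which 590 are autosomal and 565 were covered. Over these, HET embryos had 38.9%, 39.1%, 38.31%, 37.7% and 39.2% with 30 ppm and 40.0%, 40.0% and 39.6% with 3 ppm. The diets did not overlap, and the HET difference was -1.21 points (exact permutation test, p = 0.0357, adjusted p = 0.161 over 6 lists). Regions with more methylation in KO than WT differed by -1.12, -1.19 and -1.06 points in the lists of 30, 3 and 0.1 ppm (adjusted p = 0.161 each). Those that gained or lost methylation with 0.1 ppm in WT differed by -2.20 and -1.10 points (adjusted p = 0.161 each). The WT embryos of the 30 ppm diet and those of the 0.1 ppm diet each included a replicate 2 of doubtful genotype. This limits the lists made with either. Lists made with the HET 3 ppm embryos themselves are described with no test. Regions listed as higher in HET than WT with 3 ppm were at 54.1% ± 1.08 (SD, n = 5) with 30 ppm and 57.53% ± 0.906 (SD, n = 3) with 3 ppm, and those listed as lower in HET at 57.9% ± 1.34 (SD, n = 5) and 55.1% ± 0.988 (SD, n = 3).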

How the data were processed

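RRBS libraries of single E11.5 brains were prepared with MspI and TaqI. Per the study's methods, the authors trimmed reads (Trim Galore 0.6.10), aligned them to mm10 (Bismark 0.24.1) and removed duplicates by molecular identifiers (UMI-tools). The deposited files list, per CpG, a methylated fraction and a coverage count, made by the authors; fraction times coverage was whole (within 1e-06) on all lines and gave the methylated count. How strands were joined is not given in the sources used here. The authors also deposited region lists, used only as positions. Median depth was 83 reads per tile and embryo.

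Autosomal CpGs with 5 or more reads in all 8 HET libraries were kept. Tiles of 1 kb, promoters (1 kb to either side of gene starts, GENCODE vM21; 1 per symbol, protein-coding and listed genes) and CpGs were tested with a quasi-binomial logistic model, the dispersion moderated across features (as in limma 3.58.1) and held at 1 or above, a two-sided F test and Benjamini-Hochberg adjustment over all features tested (Python 3.11.15, scipy 1.17.1). Single values were tested by two-sided exact permutation over the difference of means. Named tiles were the 10 with the smallest p in each direction among those with 10 points and no overlap, at most 1 per nearest gene start (B3galt1 is named for different nearest starts); named promoters the 5 in each direction; and in each gene list the 2 with the smallest p. Called tiles outside this rule (Gm36002, Zfp473 and Tcf20) and single CpGs were named after their values were seen. The comparison and the 17 gene lists were chosen with earlier results of these data known. Replicates are separate embryos, numbered in accession order. Scripts were tested on simulated data. Counting error is covered by the model, but reads of 1 molecule can carry several CpGs.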

Additional observations from a re-analysis of the deposited data

Results flagged for a closer look

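Of 70 groups of 5 embryos examined (the 30 ppm HET embryos at the named tiles and promoters, among other values), 3 had an embryo far from the others by Dixon's 95% criterion. Chance gives about 1 in 20 separate groups, but some groups hold the same values, as Sgce and Peg10 do. In the tile nearest to Gm24444, 30 ppm replicate 3 had 50.47% and the other 4 embryos 62.6% to 65.0%. Without it the tile's difference of -10.6 points was no longer called. In the Dkk4 promoter, 30 ppm replicate 5 had 91.7% and the others 73.8% to 77.1%. In the Bsn promoter, 30 ppm replicate 3 had 26.8% and the others 19.3% to 21.4%. The cause was not tested.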

How the results depend on the processing

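The diets could not be paired, since replicate numbers follow accession order and no litter received both. Genotypes share litters, and with litter as a replicate block, added after seeing the data, the interaction called 1 tile against WT (3 without WT 30 ppm replicate 2, when 1 shared litter remained in 30 ppm) and 0 against KO (0 without KO 30 ppm replicate 1). The count of 16 called tiles became 25 at a coverage minimum of 10, 29 at 5 points, 2 at 20 points, 28 with labelled sex as a covariate, 55 with litter mates pooled and 37 with normal embryos only. It was 0 without the filter on SD, 0 with the dispersion of all 9 groups, 0 with the dispersion of each tile alone (added after seeing the data) and 0 with limma, while ignoring overdispersion gave 515 (75 higher, 440 lower). Of the 16 calls, 11 held with normal embryos only, 14 with litter mates pooled and 13 at a coverage minimum of 10. Normal embryos only lost the calls of Nr1h2, Pde4c, Rgl1 and Gm24444 (each under 10 points) and of Smoc1. Pooling lost Rgl1 and Gm24444 (both under 10 points). The coverage minimum lost Smoc1, Gm37667 and the B3galt1 tile at 67612001. With sex by X-linked level, added after seeing the data, 56 were called with sex as a covariate and 154 (12 higher, 142 lower) among female-level embryos only. Leaving out an embryo gave 22 to 98 tiles (46, 44, 41, 45 and 98 without 30 ppm replicates 1 to 5, 52, 22 and 36 without 3 ppm replicates 1 to 3), 0 to 1 promoters (1 without 3 ppm replicate 1) and 12 to 61 CpGs (61 without 30 ppm replicate 5, 12 without 3 ppm replicate 3). In those fits, which use the CpGs shared by the remaining embryos, the prior degrees of freedom of the dispersion were 106 to 163, beside 43.5 with all 8, and infinite with litters pooled, normal embryos only or female-level embryos only. With an infinite prior all tiles shared 1 dispersion, so a tile's own spread between litters or embryos did not enter its test. Calls that held in those fits are thus no check with the litter, or with fewer embryos, as the unit. The cause of the higher counts was not tested further. Called promoters numbered 17 without overdispersion, and called CpGs 25 at 20 points and, in settings added after seeing the data, 13 without CpGs of over 5 times the median depth (5 higher, 8 lower), 2 without these and the chromosome 2 interval, and 0 with the dispersion of each CpG alone. Of the 16 called tiles and the 7 others named, 0 changed sign in the 22 to 26 settings run for each. Several of these settings leave the difference itself unchanged. The named tiles were also chosen for 10 points and no overlap between diets, so their sign could hardly change. Mean methylation was 0.72 points higher with 30 ppm when each library used its own CpGs (exact permutation p = 0.429), and -0.77 to -0.15 points under 14 other settings. The regions gained in WT with 30 ppm differed by -1.12 points with litter mates pooled and -0.81 points in normal embryos, where p cannot go below 0.1, and by -1.35 to -1.12 points without 1 embryo, except that without 30 ppm replicate 4 the value was -0.99. Against WT, the interaction called 0 to 17 tiles without 1 embryo: 17 without WT 30 ppm replicate 1, 1 each without HET 3 ppm replicate 3, WT 30 ppm replicate 2 and WT 30 ppm replicate 3, and 2 without WT 3 ppm replicate 3. Against KO, 0 were called without any embryo, KO 30 ppm replicate 1 among them. Promoters that were not called changed sign for Dnmt3l (4.26 points at a coverage of 10), Zbtb38 (0.078 without 30 ppm replicate 1, 1.11 without 3 ppm replicate 1, -3.47 to 1.11 without 1 embryo), Sgce and Peg10 (-0.33 without 30 ppm replicate 2, where 22 CpGs in place of 11 were shared and the same 11 gave 9.16, -0.33 to 14.4 without 1 embryo) and Gpam (-1.33 without 3 ppm replicate 1, -1.33 to 6.02 without 1 embryo). Depth limits single CpGs (median 19.8 reads per embryo) more than tiles (83).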
